A study of Homo sapiens with 8 samples.

Results

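The clustered histone genes encode the 4 core histones (H2A, H2B, H3 and H4) and the linker histone H1, the proteins that package newly copied DNA. They were taken as the 76 rows of the deposited count table whose names begin with HIST1H, HIST2H, HIST3H or HIST4H, out of 57169 rows, after 14 names ending in PS had been left out as pseudogenes. In the GENCODE release 29 annotation on GRCh38, 55 of the 76 lay on chromosome 6, 20 on chromosome 1 and 1 on chromosome 12. They comprised 6 genes for H1, 17 for H2A, 23 for H2B, 15 for H3 and 15 for H4, with 70 annotated as protein coding and 6 as pseudogenes.

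The cells were SW620 and HCT116, established human lines from colorectal cancers. Each line was treated for 24 hours with AFZC or with 5-fluorouracil (5-FU), a drug that blocks thymidylate synthesis and so starves DNA replication, each at its own IC50 per the series' design text. The series title speaks of nanodrugs in which 5-FU is enclosed in a metal-organic framework bearing an aptamer, but no label says what the letters AFZC stand for. The 4 groups were SW620 with AFZC, SW620 with 5-FU, HCT116 with AFZC and HCT116 with 5-FU, with 2 libraries each; no untreated cells were analysed here, and each treatment comparison sets AFZC against 5-FU. The labels do not say whether libraries of 1 group were grown as separate cultures; the p-values therefore speak for library-to-library spread, possibly a technical one.

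In growing cells, most messages of these genes appear in S phase, while DNA is being copied, and disappear when replication stops. They are the metazoan mRNAs that normally end without a poly(A) tail, at a short stem-loop that the stem-loop binding protein SLBP holds. Some members can also use a poly(A) signal downstream of the stem-loop and give polyadenylated messages, a form described in cells that have stopped dividing or are differentiating. Per the labels, the libraries were made from RNA captured on oligo(dT) beads, which select poly(A) tails, so the values below describe what such a library recovers and not the whole pool of histone mRNA.

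The stem-loop and the poly(A) signal are the sequences that separate these 2 kinds of message, and both were looked for in the GENCODE transcripts of the members. A 16-base stem-loop was found in transcripts of 35 members, in 6 spellings. The following stretches show each spelling once, with 5 bases on either side and the stem-loop in capitals.
HIST1H2AC (chr6:26124664-26124689, plus strand): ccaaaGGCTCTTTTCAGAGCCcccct
HIST1H2BD (chr6:26158582-26158607, plus strand): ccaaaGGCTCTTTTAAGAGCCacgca
HIST1H2AG (chr6:27133510-27133535, plus strand): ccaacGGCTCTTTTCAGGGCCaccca
HIST1H3E (chr6:26225591-26225616, plus strand): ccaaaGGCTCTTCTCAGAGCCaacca
HIST4H4 (chr12:14770719-14770744, minus strand): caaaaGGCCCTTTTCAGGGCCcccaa
HIST1H4I (chr6:27139649-27139674, plus strand): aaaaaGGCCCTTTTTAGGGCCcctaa
The spelling of HIST1H2AC was shared by 18 members (6 H2A, 9 H2B and 3 H3 genes) and that of HIST1H2BD by 5. The spellings of HIST4H4 and HIST1H4I, shared by 5 and 3 members, occurred in H4 genes alone, and 3 members had that of HIST1H2AG. HIST1H3E alone had its spelling.

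A poly(A) signal, AATAAA or ATTAAA, lay within the last 40 bases of an annotated transcript, past any stem-loop, in 25 members. The last 30 bases of 5 such transcripts are shown because these members carry the largest counts or changes below, with the signal in capitals.
HIST1H2AC (chr6:26139087-26139116, plus strand): tAATAAAaggtaatgcaaagggagaggaaa
HIST1H2BD (chr6:26171320-26171349, plus strand): taattAATAAAatctgcggagaattgtaaa
HIST2H2BE (chr1:149884459-149884488, minus strand): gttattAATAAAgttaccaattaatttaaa
HIST3H2A (chr1:228456979-228457008, minus strand): tctgatATTAAAagtatttatgatctctaa
HIST1H3H (chr6:27811271-27811300, plus strand): atgactaAATAAAatctgtataatccccac
In the HIST1H2AC transcript the annotated end lay 1128 bases past the stem-loop, and in that of HIST2H2BE 1729 bases past it. A match is a description of the annotation and does not show which end was used in these cells.

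Library totals ran from 31991561 to 40590291 counts. Of these, the 76 members together had 936 to 3523 counts in a library, and between 37 and 48 of them had any count. Levels are given as CPM (counts divided by the library total, times 1e6) scaled with TMM factors, which correct for differences in library composition and ran from 0.816 to 1.11. For each gene with exactly 1 count there were 1.68 to 1.84 with exactly 2, which is what counting both mates of a read pair produces; intervals built on independent counts are then too narrow and speak for counting error alone. Both lines carried the epithelial markers KRT8, KRT18, KRT19, EPCAM and CDH1 at mean levels of 3713, 1384, 1670, 415 and 481 CPM. VIL1 and LGALS4, of the same list, were near 0 in HCT116, at 0 to 1.96 CPM and 0.0530 to 0.0576 CPM. CDX1 had 19 counts in all 8 libraries, and the leukocyte markers PTPRC and CD3E had 6 and 2. Other markers of fibroblasts and leukocytes were not absent. The 10 listed together had from 44.7 CPM (HCT116 5-FU library 1) to 114 CPM (SW620 AFZC library 1). Of these 10, 5 passed the count filter described below, LYZ, LUM and COL1A1 among them.

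Few of the members were measured well. A filter that asked for about 0.296 CPM in at least 2 libraries (edgeR's filterByExpr, minimum count 10) was passed by 26 members, namely 2 H1, 5 H2A, 12 H2B, 3 H3 and 4 H4 genes; the other 50 were not tested. Of those 50, 16 had no count in any library, and 34 had from 1 to 41 counts in all 8 libraries together. The 5 with the highest totals were HIST3H3 (41 counts), HIST1H2BF (36), HIST1H2BH (34), HIST1H4K (31) and HIST1H4J (30). All 34 counts of HIST1H2BH lay in SW620, with 12 and 6 in AFZC libraries and 6 and 10 in 5-FU libraries, and HCT116 libraries had 0. The 26 tested members held 94.8% to 98.1% of the members' counts in a library, and the 8 with the highest mean level held 65.4% to 84.8%.

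Members with an annotated poly(A) signal made up most of those measured. Of the 25 with a signal, 16 passed the filter, against 10 of 51 without one. Of those 51, 32 are annotated as coding sequence alone, which holds no 3' end where a signal could be found. Of the 19 others without a signal, 6 passed. This split therefore cannot show whether having a signal goes with passing the filter. The 32 members whose annotation consists of coding sequence alone had a median of 4.5 counts in all 8 libraries together, and 4 of them passed (HIST1H1C, HIST1H2BK, HIST2H2AC and HIST2H3D). The annotated exons of tested members had a median length of 1510.5 bases, against 411 bases in members that were not tested. Across the 76 members, annotated exon length and mean CPM had a Spearman correlation of 0.54; members share libraries, and a longer gene takes more counts, so the value is a description.

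**Figure D1:**
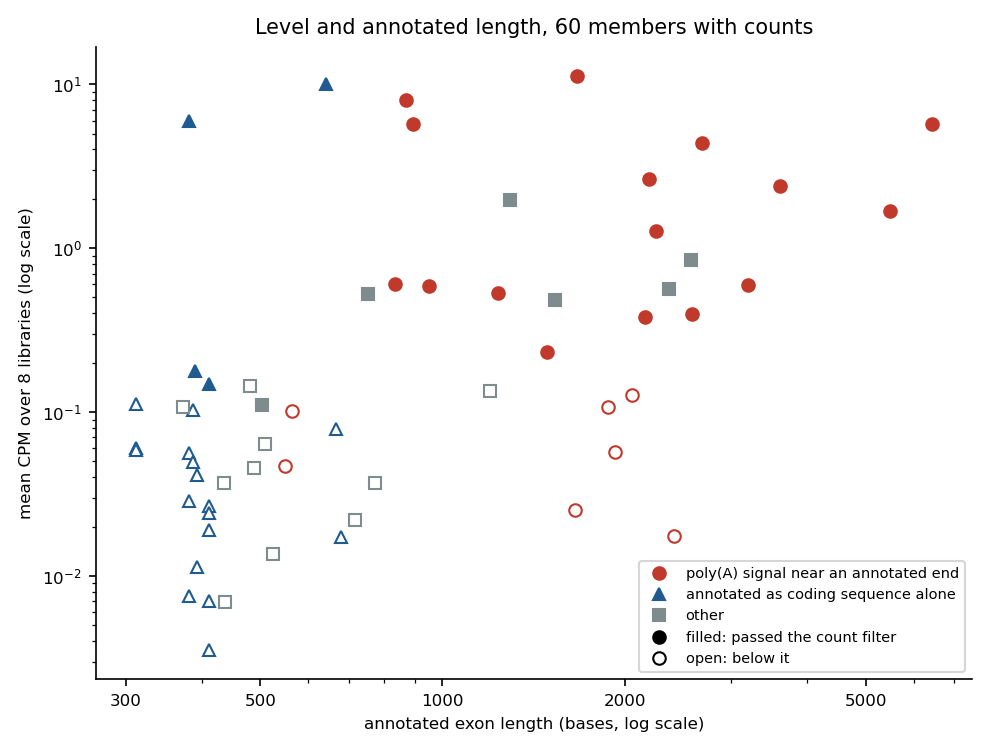
Mean CPM over 8 libraries (vertical, log scale) against annotated exon length in bases (horizontal, log scale) for the 60 members with counts. Filled symbols passed the count filter. Most members with a poly(A) signal (circles) sit to the right and high; HIST1H2BK and HIST1H1C are the 2 high triangles at the left, annotated as coding sequence alone.

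Per kilobase of annotated exon, 5 members stood above the rest in all 4 groups. HIST1H2BK and HIST1H1C averaged 15.6 and 15.6 CPM per kilobase over the 8 libraries, HIST1H2BD 9.26, HIST1H2AC 6.75 and HIST3H2A 6.43, and the next, HIST1H3E, averaged 1.64. HIST1H1C ranked highest in SW620, with 6.83 CPM per kilobase after AFZC and 28.4 after 5-FU. HIST1H2BK ranked highest in HCT116, with 18.5 CPM per kilobase after AFZC and 24.1 after 5-FU. Where an annotation leaves out part of a transcript, as it may for the members annotated as coding sequence alone, a level per kilobase is too high.

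In SW620, histone cluster genes were lower after AFZC than after 5-FU. The members summed to 29.6 and 26.1 CPM in the 2 AFZC libraries and to 89.5 and 88.6 CPM in the 2 5-FU libraries, a ratio of the means of 0.313. In HCT116 they summed to 63.7 and 69.3 CPM after AFZC and to 102 and 84.0 CPM after 5-FU, a ratio of 0.717. Within each line the AFZC sums lay below the 5-FU sums, and the SW620 AFZC sums were the lowest of all. In bulk samples, fewer cells in S phase or in another state and less RNA per cell cannot be told apart.

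All 5 protein classes had a lower sum after AFZC in SW620. The ratio of AFZC to 5-FU was 0.239 for H1 genes, 0.242 for H2A, 0.381 for H2B, 0.346 for H3 and 0.384 for H4. In HCT116 the same ratios were 0.789, 0.675, 0.736, 0.652 and 0.828 for H1, H2A, H2B, H3 and H4. H2B genes made up the largest class sum, with 16.3 and 12.6 CPM after AFZC and 37.3 and 38.6 CPM after 5-FU in SW620. This sum and the H2B ratio include HIST2H2BC and HIST2H2BD, which are annotated as transcribed pseudogenes and changed less in SW620. HIST2H2BC gave 5.71 and 4.72 CPM after AFZC and 8.47 and 8.73 CPM after 5-FU in that line. HIST2H2BD gave 3.63 and 1.95 CPM after AFZC and 3.48 and 3.59 CPM after 5-FU. H4 genes, of which 4 were tested, summed to 2.03 and 2.54 CPM after AFZC and 6.20 and 5.68 CPM after 5-FU in that line.

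**Figure D2:**
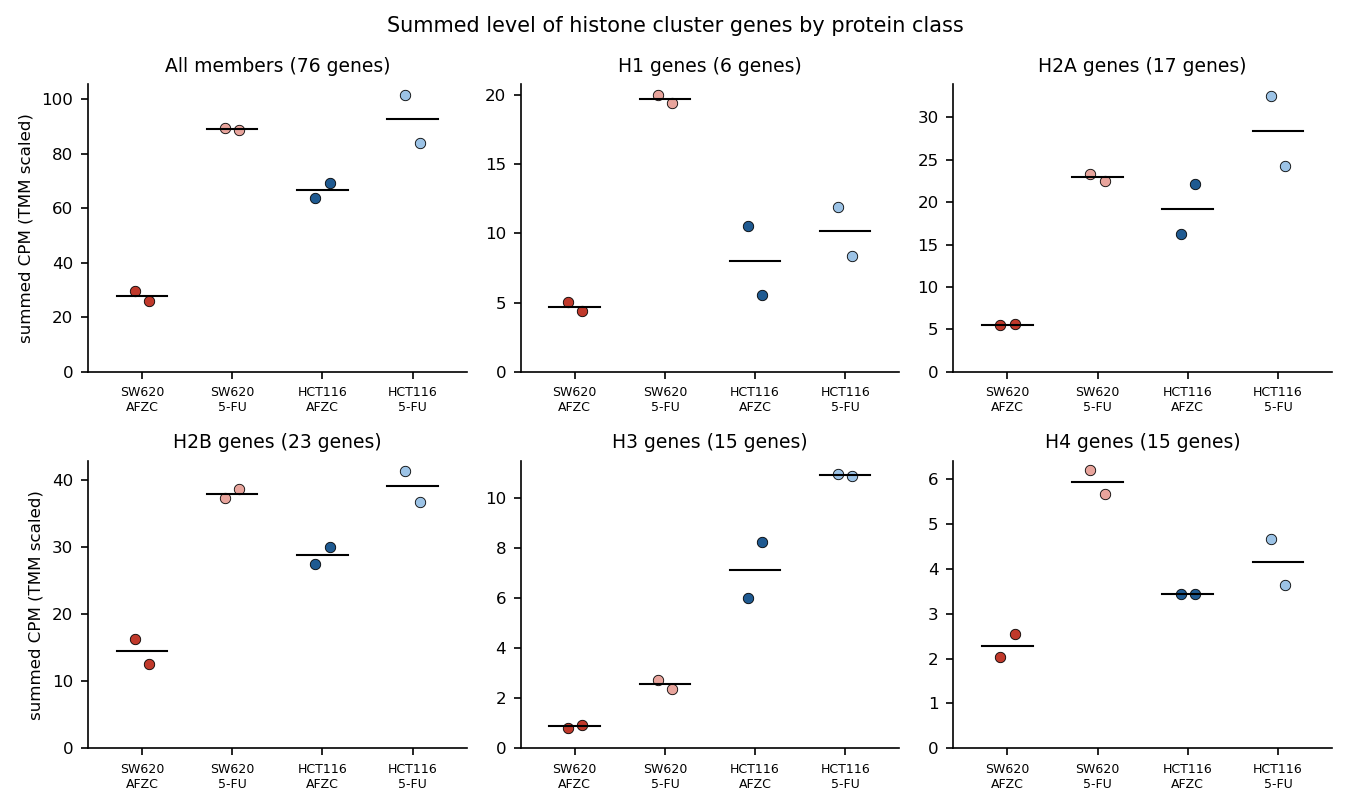
Summed CPM (vertical) of all 76 members and of each protein class in the 8 libraries, by group (horizontal); each point is a library and each line the mean of 2. In SW620 every AFZC point lies below both 5-FU points in all 6 panels.

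By edgeR's quasi-likelihood test with Benjamini-Hochberg adjustment over 21378 genes, 12 of the 26 tested members fell after AFZC in SW620 and 0 rose. Here and below, fell and rose mean called lower and higher by this test. A member not said to fall may still have been lower. Over all genes tested, 6.95% were called lower and 11.6% higher in that comparison. The members' median log2 fold change was -1.82, against 0.03 over all genes. HIST1H2AI had no count in SW620 after AFZC. Its fitted value and its bound both lie below that median, so setting it at the bound could not move the median. A total of 22 of the 26 members had both AFZC libraries below both 5-FU libraries, against 28.4% of all genes. Of the 26, 12 were above the filter's level in all 8 libraries, and 8 of those fell. HIST1H2BG passed the filter through its SW620 5-FU libraries alone, so its lower level elsewhere follows in part from how it was chosen for testing.

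Among linker histone genes, HIST1H1C (H1.2; chr6:26055787-26056428, minus strand) had 4.76 and 4.02 CPM after AFZC and 18.5 and 17.9 CPM after 5-FU in SW620. In HCT116 it had 9.91 and 5.33 CPM after AFZC and 11.7 and 7.75 CPM after 5-FU. The SW620 groups were far apart, whereas in HCT116 they overlapped. The fall of HIST1H1C in SW620 was -2.05 ± 0.32 on the log2 scale (SE), with an adjusted p of 0.00101. HIST1H1E, the other H1 gene tested, had a log2 fold change of -1.78 ± 0.80 (SE) that did not pass (adjusted p = 0.145).

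Of the 5 H2A genes tested, 2 fell in SW620. HIST1H2AC (chr6:26124145-26139116, plus strand) had 2.31 and 2.09 CPM after AFZC and 12.3 and 12.7 CPM after 5-FU in SW620. In HCT116 it had 8.98 and 15.5 CPM after AFZC and 21.6 and 14.7 CPM after 5-FU, so that the HCT116 groups overlapped and all 4 were above the SW620 AFZC libraries. Its log2 fold change in SW620 was -2.50 ± 0.31 (SE; adjusted p = 0.000212). This is the gene shown above with both a stem-loop and, at the end of its longer transcript, a poly(A) signal.

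HIST3H2A, an H2A gene of the small cluster on chromosome 1 (chr1:228456979-228457873, minus strand), had 2.08 and 2.57 CPM after AFZC and 8.54 and 8.34 CPM after 5-FU in SW620. In HCT116 it had 5.19 and 4.72 CPM after AFZC and 8.71 and 5.92 CPM after 5-FU. The groups did not overlap in either line, and the test passed in SW620 (log2 fold change -1.86 ± 0.31, SE; adjusted p = 0.00138) and not in HCT116, where it was -0.56 ± 0.29 (SE; adjusted p = 0.262). HIST1H2AG (chr6:27133042-27135291, plus strand) had 0.366 and 0.586 CPM after AFZC and 1.34 and 0.936 CPM after 5-FU in SW620, and 1.17 and 1.44 against 1.56 and 2.75 CPM in HCT116. Its SW620 groups did not overlap and the test did not pass (log2 fold change -1.25 ± 0.52, SE; adjusted p = 0.112).

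H2B genes gave 6 of the 12 calls. HIST1H2BD (chr6:26158146-26171349, plus strand) had 1.83 and 1.12 CPM after AFZC and 4.85 and 3.90 CPM after 5-FU in SW620, against 12.4 and 10.8 CPM after AFZC and 15.5 and 14.1 CPM after 5-FU in HCT116. HIST1H2BK (chr6:27146418-27146798, minus strand) had 1.44 and 1.42 CPM after AFZC and 5.85 and 6.37 CPM after 5-FU in SW620, against 6.39 and 7.74 CPM after AFZC and 10.8 and 7.50 CPM after 5-FU in HCT116. Both genes were at their lowest in SW620 after AFZC, with no overlap between the SW620 groups. Their log2 fold changes in SW620 were -1.57 ± 0.30 for HIST1H2BD and -2.09 ± 0.31 for HIST1H2BK (SE; adjusted p = 0.00378 and 0.000725). Of the 100-base windows of HIST1H2BK, 28.4% also occur in another histone gene, so its counts may include reads of a paralog; how reads with several alignments were treated is not given in the sources used here.

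HIST2H2BE, an H2B gene of the larger cluster on chromosome 1 (chr1:149884459-149886652, minus strand), had 0.732 and 1.14 CPM after AFZC and 5.85 and 8.19 CPM after 5-FU in SW620. In HCT116 it had 0.795 and 1.14 CPM after AFZC and 1.82 and 1.54 CPM after 5-FU. The SW620 5-FU libraries stood above all other libraries, and the AFZC libraries of the 2 lines overlapped. HIST2H2BE fell in SW620 by 2.90 on the log2 scale (SE 0.41; adjusted p = 0.000519).

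The 3 other H2B genes that fell had fewer counts. HIST1H2BC (chr6:26114873-26123926, minus strand) had 0.225 and 0.307 CPM after AFZC and 1.79 and 1.42 CPM after 5-FU in SW620, against 0.106 and 0.472 after AFZC and 0.404 and 0.112 CPM after 5-FU in HCT116. HIST1H2BG (chr6:26215159-26216692, minus strand) had 0.169 and 0.223 CPM after AFZC and 1.62 and 1.60 CPM after 5-FU in SW620, against 0.0530 and 0.166 after AFZC and 0 and 0.0281 CPM after 5-FU in HCT116. HIST2H2BF (chr1:149782689-149812373, minus strand) had 0.253 and 0.279 CPM after AFZC and 1.14 and 1.15 CPM after 5-FU in SW620, against 0.583 and 0.472 after AFZC and 0.375 and 0.505 CPM after 5-FU in HCT116. In each of the 3, the SW620 5-FU libraries were the highest and clear of the AFZC libraries. HIST1H2BG passed the count filter through its SW620 5-FU libraries alone, so its values and test are given as a description. The log2 fold changes in SW620 were -2.58 ± 0.76 for HIST1H2BC, -3.01 ± 0.73 for HIST1H2BG and -2.09 ± 0.59 for HIST2H2BF (SE; adjusted p = 0.0332, 0.0135 and 0.0273). HIST2H2BF shares exon sequence with FCGR1A on the opposite strand, which unstranded counting cannot separate.

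The H2B genes that were not called in SW620 included 3 well-measured ones. HIST2H2BC (chr1:149844498-149850937, minus strand) and HIST2H2BD (chr1:149842875-149846486, plus strand) are annotated as transcribed pseudogenes and overlap each other. HIST2H2BC had 5.71 and 4.72 CPM after AFZC and 8.47 and 8.73 CPM after 5-FU in SW620, and 3.31 and 3.58 against 6.08 and 5.19 CPM in HCT116. Its groups did not overlap in either line and the test passed in neither, with log2 fold changes of -0.72 ± 0.27 in SW620 and -0.71 ± 0.28 in HCT116 (SE; adjusted p = 0.0850 and 0.129). HIST2H2BD had 3.63 and 1.95 CPM after AFZC and 3.48 and 3.59 CPM after 5-FU in SW620, and 0.981 and 1.41 against 1.50 and 2.50 CPM in HCT116. HIST1H2BN had 0.957 and 0.697 CPM after AFZC and 0.861 and 0.997 CPM after 5-FU in SW620, and 1.80 and 1.94 against 2.88 and 3.28 CPM in HCT116. For these 2 genes the SW620 groups overlapped and the HCT116 groups did not, and neither passed in either line. HIST1H2BN (chr6:27837760-27865798, plus strand) shares exon sequence with HIST1H2AK on the opposite strand and HIST1H2AL on its own.

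Both H3 genes that fell in SW620 lie in the chromosome 6 cluster. HIST1H3E (chr6:26224199-26227473, plus strand) had 0.507 and 0.697 CPM after AFZC and 1.45 and 1.69 CPM after 5-FU in SW620. In HCT116 it had 4.80 and 6.27 CPM after AFZC and 9.89 and 9.80 CPM after 5-FU. HCT116 libraries were higher than SW620 libraries throughout, and AFZC libraries were below 5-FU libraries in both lines. The log2 fold change was -1.38 ± 0.36 in SW620 and passed (SE; adjusted p = 0.0192); in HCT116 it was -0.83 ± 0.30 and did not (SE; adjusted p = 0.105).

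HIST1H3H (chr6:27810064-27811300, plus strand) was near 0 after AFZC in SW620, with 2 and 0 counts (0.0563 and 0 CPM) against 17 and 18 counts after 5-FU (0.585 and 0.544 CPM). HCT116 had 32 and 36 counts after AFZC (0.848 and 0.999 CPM) and 28 and 16 after 5-FU (0.807 and 0.449 CPM). The SW620 groups were apart, and in HCT116 the AFZC libraries were the higher. The ratio of pooled SW620 levels was 0.0498, with a 95% exact interval of 0.00580 to 0.194. The test passed with an adjusted p of 0.0101; the fitted log2 fold change of -4.17 ± 0.96 (SE) depends on the prior count at such counts.

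Of the 4 H4 genes tested, 1 fell. HIST1H4I (chr6:27138588-27139881, plus strand) had 0.647 and 0.474 CPM after AFZC and 2.07 and 1.72 CPM after 5-FU in SW620. In HCT116 it had 2.62 and 2.47 CPM after AFZC and 3.06 and 2.58 CPM after 5-FU. The SW620 AFZC libraries were the lowest, and the HCT116 groups overlapped. Its log2 fold change in SW620 was -1.75 ± 0.41 (SE; adjusted p = 0.0115). The annotated transcript of HIST1H4I ends 212 bases past the stem-loop shown above, with no poly(A) signal found near its end.

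**Figure D3:**
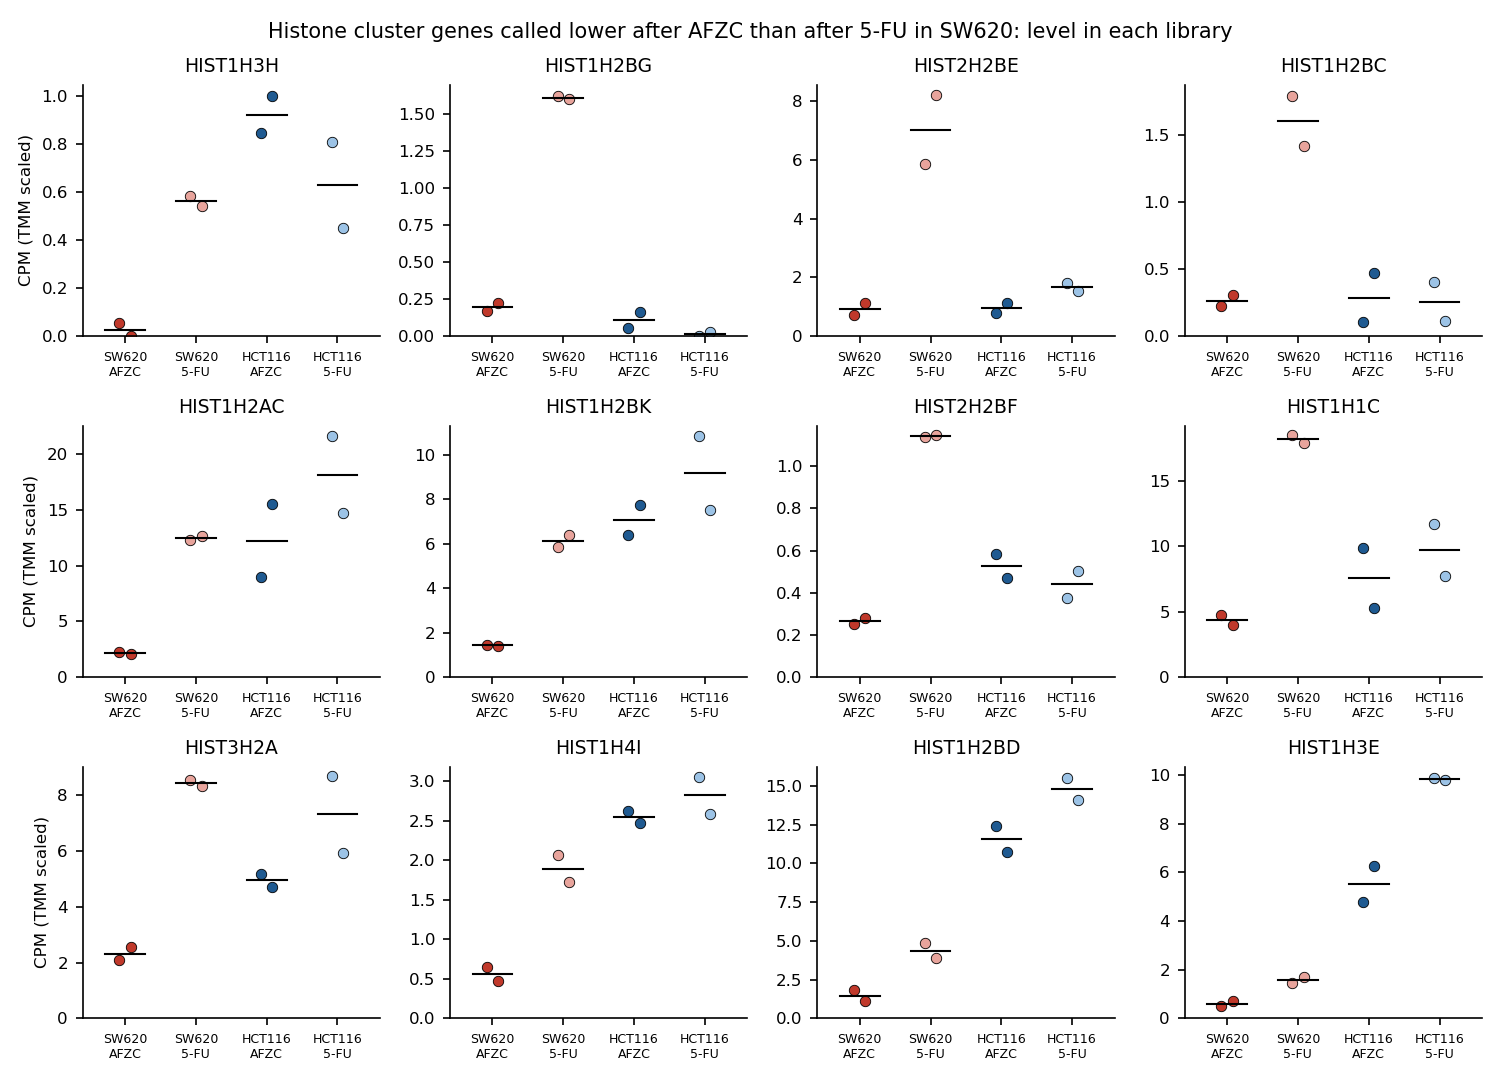
CPM (vertical, from 0) of the 12 members called lower after AFZC than after 5-FU in SW620, in all 8 libraries by group (horizontal); points are libraries and lines the mean of 2. In every panel the SW620 AFZC points lie below the SW620 5-FU points, while the HCT116 groups overlap in some panels, as for HIST1H1C and HIST1H2AC.

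The other 7 tested members had between 30 and 153 counts over all libraries, and none passed a treatment comparison. They were HIST1H1E, HIST2H2AC, HIST1H2AI, HIST1H2BE, HIST3H2BB, HIST2H3D and HIST1H4E. HIST3H2BB came nearest in SW620 (log2 fold change -2.13 ± 0.70, SE; adjusted p = 0.0514). HIST1H2AI had 0 counts in both AFZC libraries of SW620 and 10 and 2 counts in the 5-FU libraries, which is at least 4.59-fold lower against a floor of 3 counts over the group; its test did not pass (adjusted p = 0.142). Of the 100-base windows of HIST1H2AI and HIST2H3D, 57.7% and 51.3% also occur in another histone gene, so their counts are uncertain.

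The SW620 calls differed in how firmly they stood. HIST1H1C, HIST1H2AC, HIST1H2BD, HIST1H2BK, HIST2H2BE and HIST3H2A passed in all 16 alternative analyses, and HIST1H3H in all 15 that tested it. Without 1 of the SW620 AFZC libraries 9 members were called lower, and without 1 of the SW620 5-FU libraries 8 were. HIST2H2BF and HIST1H2BC lost their call without any 1 of these 4 libraries (adjusted p up to 0.116 and 0.133). HIST1H2BG, HIST1H3E and HIST1H4I lost theirs without some of them (adjusted p up to 0.0834, 0.119 and 0.0594). With library sizes in place of TMM factors, the median of all genes in SW620 moved to 0.40 and that of the members to -1.44, and 9 members were called lower. Under that scaling, 5141 genes were called higher and 445 lower, against 2482 and 1486 with TMM factors.

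In HCT116, no histone cluster gene passed the test in either direction. Of the 26 tested, 18 had a negative and 8 a positive fitted log2 fold change, with a median of -0.36 against 0 over all genes. Over all genes, 5.87% were called higher and 3.74% lower. At an unadjusted p under 0.05, 0 were higher and 2 lower, HIST1H3E and HIST2H2BC, and DESeq2 also called 0. Groups did not overlap for 10 members that were lower after AFZC and for 4 that were higher, against 27.4% and 28.1% of all genes. Of the 4 higher ones, HIST1H2BJ had 0.292 and 0.666 CPM after AFZC against 0 and 0.253 CPM after 5-FU, and its test did not pass (log2 fold change 1.88 ± 0.94, SE; adjusted p = 0.243). Fitting HCT116 on its own gave 1 call, HIST1H3E (log2 fold change -0.83, adjusted p = 0.0412); over the 16 alternatives its adjusted p ran from 0.0412 to 0.452.

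**Figure D4:**
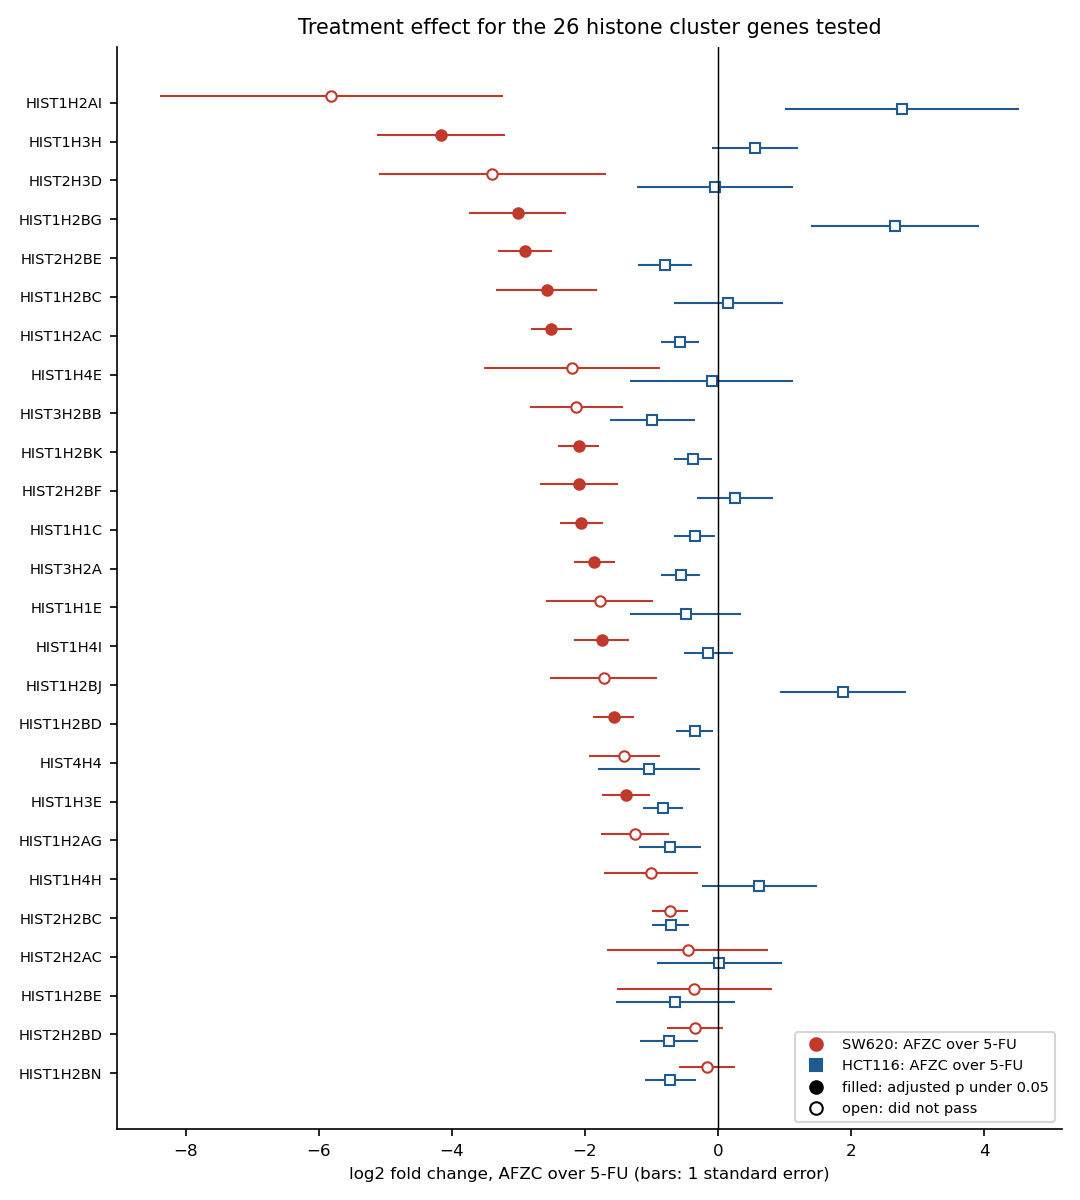
log2 fold change of AFZC over 5-FU (horizontal, bars 1 standard error) for the 26 tested members, in SW620 (circles) and HCT116 (squares); filled symbols passed at an adjusted p under 0.05. All 26 SW620 values lie left of 0 and 12 are filled, whereas HCT116 values fall on both sides and none is filled.

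The difference between the lines was tested itself, as the SW620 effect minus the HCT116 effect. It was negative and past the threshold for 6 members and positive and past it for 0, against 4.14% and 5.65% of all genes. The 6 were HIST1H2AC (-1.93 ± 0.42, SE), HIST1H2BK (-1.72 ± 0.42), HIST1H1C (-1.70 ± 0.44), HIST2H2BE (-2.10 ± 0.57), HIST1H3H (-4.72 ± 1.18) and HIST1H2BG (-5.67 ± 1.43), as differences of log2 fold changes. Their adjusted p by edgeR's quasi-likelihood test were 0.0124, 0.0224, 0.0297, 0.0352, 0.0248 and 0.0261. The values of HIST1H3H and HIST1H2BG rest on groups with 2 counts and 1 count and depend on the prior count. HIST1H2BG also passed the count filter through its SW620 5-FU libraries alone. Its negative difference follows in part from how it came to be tested and is given as a description. The calls rest on few libraries: without either HCT116 5-FU library, or without the second SW620 5-FU library, 1 member was called, and that was HIST1H2AC without HCT116 5-FU library 1 or SW620 5-FU library 2. Without HCT116 AFZC library 2, 3 were called. With library sizes in place of TMM factors 4 members were called lower and 0 higher, and over all genes 430 lower and 2455 higher, against 884 and 1207 with TMM factors. For HIST2H2BC and HIST1H3E, the differences were -0.01 ± 0.40 and -0.55 ± 0.47 (SE), with 95% intervals of -0.87 to 0.84 and -1.56 to 0.46.

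Between the lines, the members were split under 5-FU, and most had a lower fitted level in SW620 under AFZC. Of the 26 tested, 12 had a negative and 14 a positive fitted log2 fold change under 5-FU. Under 5-FU, 7 members were higher and 3 lower in SW620 than in HCT116, against 26.5% and 28.2% of all genes. With library sizes in place of TMM factors the split was 6 higher and 7 lower, while the median of all genes moved to -0.34 and that of the members to 0.11, against 0.41 with TMM factors. HIST1H2BG, HIST4H4, HIST1H2BJ and HIST1H4H had the largest differences among called members. Of these, HIST1H2BG, HIST4H4 and HIST1H4H passed the count filter through SW620 libraries alone, so a higher level in SW620 follows in part from how they came to be tested, and their values and tests are given as a description. HIST4H4 (chr12:14767999-14771131, minus strand), the lone member on chromosome 12, had 1.86 and 2.60 CPM in SW620 and 0.231 and 0.168 CPM in HCT116 after 5-FU. After AFZC it had 0.619 and 1.06 CPM in SW620 and 0.0530 and 0.139 CPM in HCT116. SW620 was above HCT116 under both treatments, with log2 fold changes of 3.46 ± 0.61 under 5-FU and 3.09 ± 0.68 under AFZC (SE; adjusted p = 0.000386 and 0.00218).

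HIST1H2BJ (chr6:27125897-27132750, minus strand) had 1.55 and 1.15 CPM in SW620 against 0 and 0.253 CPM in HCT116 after 5-FU, and 0.422 and 0.391 against 0.292 and 0.666 CPM after AFZC. HIST1H4H (chr6:26277609-26285638, minus strand) had 1.14 and 0.514 CPM in SW620 against 0.115 and 0.112 CPM in HCT116 after 5-FU, and 0.366 and 0.446 against 0.133 and 0.222 CPM after AFZC. For both, SW620 was above HCT116 with no overlap under 5-FU; under AFZC the lines overlapped for HIST1H2BJ. Under 5-FU the log2 fold change was 3.37 ± 0.92 for HIST1H2BJ and 2.81 ± 0.81 for HIST1H4H (SE; adjusted p = 0.00756 and 0.00995), and that of HIST1H4H lost its call without either HCT116 5-FU library or SW620 5-FU library 1 (adjusted p up to 0.109). HIST1H2BG had 100 counts in the SW620 5-FU libraries and 1 count in the HCT116 5-FU libraries, a ratio of levels of 113 with a 95% exact interval of 19.8 to 4513 (adjusted p = 0.000149), and the SW620 5-FU libraries are those through which it passed the filter.

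Under AFZC, 9 members were lower and 2 higher in SW620 than in HCT116, against 24.2% and 25.1% of all genes. Of the 26 tested, 20 had a negative and 6 a positive fitted log2 fold change. The median was -1.18, against -0.007 over all genes. HIST1H2BE, HIST2H2AC and HIST2H3D passed the count filter through HCT116 libraries alone, so their lower level in SW620 follows in part from how they came to be tested. No member called under both treatments changed direction: HIST1H3E, HIST1H2BD and HIST1H2BN were lower in SW620 under both and HIST4H4 higher. The 2 higher were HIST4H4 and HIST2H2BD, the second of which was not called without SW620 AFZC library 1 or HCT116 AFZC library 1 (adjusted p up to 0.265). HIST1H3H, HIST1H3E and HIST1H2BD had the largest differences among the lower ones. HIST1H3E was lower in SW620 under AFZC and under 5-FU, with log2 fold changes of -3.19 ± 0.35 and -2.64 ± 0.33 (SE; adjusted p = 9.22e-06 and 1.98e-05). HIST1H2BD was also lower under both, with -2.97 ± 0.31 and -1.76 ± 0.29 (SE; adjusted p = 5.01e-06 and 0.00019). For HIST1H3H the ratio of SW620 to HCT116 levels under AFZC was 0.0304, with a 95% exact interval of 0.00361 to 0.114 (adjusted p = 0.000837); it passed the filter through the 3 other groups. These comparisons share libraries with the treatment comparisons above.

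H2A and H2B genes often lie head to head and share the DNA between their starts. Among the members, 13 such pairs had starts within 500 bases on opposite strands; both partners were tested in 4 pairs, 1 partner in 5 and neither in 4. Where both partners had counts, their mean levels per kilobase differed from 1.10-fold (HIST1H2AG and HIST1H2BJ) to 58.3-fold. The largest ratios follow, and some rest on few counts, such as the 28 of HIST1H2AH in all 8 libraries. HIST1H2BK averaged 15.6 CPM per kilobase and HIST1H2AH, whose start is 331 bases away, 0.268, a ratio of 58.3. HIST3H2A averaged 6.43 and HIST3H2BB 0.238, a ratio of 27.0 over 234 bases. HIST1H2AC averaged 6.75 and HIST1H2BC 0.725, a ratio of 9.32 over 219 bases, and both of these fell in SW620. These are means over 4 groups, and the gap was not the same in each: HIST1H2AC and HIST1H2BC had 7.49 and 1.92 CPM per kilobase in SW620 after 5-FU, and 10.9 and 0.309 in HCT116 after 5-FU. For HIST1H2AG and HIST1H2BJ even the order differed, with 0.506 and 1.42 CPM per kilobase in SW620 after 5-FU and 0.957 and 0.133 in HCT116 after 5-FU.

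Promoter windows from RefSeq (GRCh38.p14), from 250 bases before to 50 after each start, matched 56 of the 76 members. The octamer ATTTGCAT, the site known from H2B promoters that the factor POU2F1 binds, was found on either strand in 19 of the 56 (33.9%), against 1.77% of all 35116 windows. CCAAT was found in 82.1% of members and 34.6% of all windows, and TATAAA in 66.1% and 11.5%. These windows belong to members measured and unmeasured alike. By class, the octamer was found in 11 of 16 H2A windows and 8 of 11 H2B windows. Windows of head-to-head partners can overlap, so the same site may be counted for both partners. Of the 12 members that fell in SW620, 7 had a window and 3 of those held the octamer; over the tested members, 18 had a window and 6 held it. The 150 bases before the start of those 3 are shown, with the octamer, CCAAT and TATAAA of either strand in capitals.
HIST2H2BF (chr1:149812371-149812520, minus strand): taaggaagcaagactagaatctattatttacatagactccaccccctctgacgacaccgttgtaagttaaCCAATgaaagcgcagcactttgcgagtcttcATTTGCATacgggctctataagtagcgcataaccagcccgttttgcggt
HIST2H2BE (chr1:149886683-149886832, minus strand): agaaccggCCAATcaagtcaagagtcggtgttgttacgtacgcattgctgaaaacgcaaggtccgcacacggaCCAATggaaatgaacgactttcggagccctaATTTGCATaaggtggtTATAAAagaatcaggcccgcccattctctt
HIST1H2AC (chr6:26124022-26124171, plus strand): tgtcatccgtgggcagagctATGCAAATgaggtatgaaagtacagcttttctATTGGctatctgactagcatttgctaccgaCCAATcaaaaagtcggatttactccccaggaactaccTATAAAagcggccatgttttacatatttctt
The octamer begins 49 bases before the start in HIST2H2BF, 46 before it in HIST2H2BE and 130 before it in HIST1H2AC, where it lies on the other strand. A match is a description and says nothing of whether the factor was bound.

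Genes that act with histone genes were described from lists, whose counts stand beside 11.6% of all genes called higher and 6.95% lower in SW620, and 5.87% and 3.74% in HCT116. The lists were drawn up with earlier results of these data known, so their counts are given as a description. All 33 genes of the replication fork list (origin licensing and DNA synthesis) were called higher in SW620 after AFZC. Their median log2 fold change was 1.81. In HCT116, 1 of the 33 was higher (PCNA, the sliding clamp, 1.24 ± 0.17, SE) and 2 lower (MCM6 and MCM7); MCM6 was not called without either HCT116 5-FU library (adjusted p up to 0.0864). In SW620, PCNA had 217 and 211 CPM after AFZC and 54.3 and 50.7 CPM after 5-FU (log2 fold change 2.03 ± 0.17, SE; adjusted p = 1.06e-05). POLA2, a subunit of the primase complex, and GINS4, of the replicative helicase, rose by 2.84 ± 0.28 and 2.81 ± 0.21 on the log2 scale (SE). In SW620 the direction of these 33 was the opposite of that of the 12 histone cluster genes that fell.

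A second list held genes whose products transcribe and process histone mRNA. Of its 23 genes, 6 rose in SW620 (CCNE2, CCNE1, CASP8AP2, CDK2, SLBP and CSTF2) and 0 fell, with a median of 0.24. SLBP had 107 and 96.4 CPM after AFZC and 52.1 and 59.2 CPM after 5-FU in SW620, and 106 and 90.9 against 115 and 92.7 CPM in HCT116. It rose in SW620 by 0.87 ± 0.16 on the log2 scale (SE; adjusted p = 0.00309), and HCT116 groups overlapped. CASP8AP2, a coactivator of histone transcription, had 51.7 and 50.6 CPM after AFZC and 20.5 and 22.0 CPM after 5-FU in SW620, a rise of 1.27 ± 0.16 (SE; adjusted p = 0.000245), and 37.1 and 41.9 against 39.1 and 45.0 CPM in HCT116. NPAT, the cyclin E and CDK2 substrate that activates histone promoters, had 48.3 and 41.9 CPM after AFZC and 35.2 and 33.1 CPM after 5-FU in SW620 and was not called. CCNE2 and CCNE1, the E cyclins, rose in SW620 by 2.96 ± 0.35 and 1.51 ± 0.31 (SE). In HCT116, 0 of the 23 rose and 2 fell, MIF4GD (-0.81 ± 0.19, SE), which binds SLBP, and CSTF2T (-0.60 ± 0.17, SE). Neither held without HCT116 AFZC library 1 or either HCT116 5-FU library, and CSTF2T also not without either SW620 5-FU library (adjusted p up to 0.207 and 0.228).

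Of 18 measured genes of histone mRNA decay, 2 rose in SW620, LSM3 (1.14 ± 0.17, SE) and ERI1 (1.07 ± 0.17, SE), the exonuclease that trims the stem-loop, a share near that of all genes called higher. LSM3 also rose in HCT116 (0.65 ± 0.17, SE), though not without HCT116 AFZC library 1 or either HCT116 5-FU library (adjusted p up to 0.233). Of 22 histone chaperones, 8 rose and 0 fell in SW620, led by ASF1B and CHAF1A. ASF1B, which hands H3 and H4 to the replication fork, had 110 and 96.8 CPM after AFZC and 19.7 and 18.1 CPM after 5-FU in SW620 (log2 fold change 2.45 ± 0.16, SE; adjusted p = 4.73e-06). CHAF1A, a subunit of the assembly factor CAF-1, had 70.8 and 63.8 against 15.2 and 11.7 CPM (2.33 ± 0.18, SE; adjusted p = 7.65e-06). In HCT116, UBN1 rose (0.54 ± 0.15, SE) and NAP1L1 fell (-0.995 ± 0.205, SE). UBN1 lost its call without any 1 HCT116 library or either SW620 5-FU library, and NAP1L1 without HCT116 AFZC library 1 or HCT116 5-FU library 1 (adjusted p up to 0.294 and 0.125).

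Variant histones, whose genes lie outside the clusters and whose messages mostly carry poly(A) tails, moved both ways in SW620. Of 12, 2 rose and 3 fell, with a median of -0.32. H1F0 (H1.0), the linker histone of cells that have stopped dividing, had 959 and 1230 CPM after AFZC and 2655 and 3043 CPM after 5-FU in SW620, and 727 and 598 against 855 and 803 CPM in HCT116. It fell in SW620 by 1.38 on the log2 scale (SE 0.20; adjusted p = 0.000551), and H1FX fell in SW620 (-1.96 ± 0.20, SE) and in HCT116 (-0.86 ± 0.19, SE; adjusted p = 0.212 without HCT116 5-FU library 1). H3F3B, which encodes the replacement histone H3.3, had 600 and 811 CPM after AFZC and 1284 and 1423 CPM after 5-FU in SW620 (-0.94 ± 0.19, SE; adjusted p = 0.00524, and 0.0542 without SW620 5-FU library 2).

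H2AFX, the variant phosphorylated at DNA breaks, which can give both stem-loop and polyadenylated messages, had 150 and 189 CPM after AFZC and 75.0 and 83.3 CPM after 5-FU in SW620, a rise of 1.10 ± 0.24 (SE; adjusted p = 0.00901). Without SW620 AFZC library 2 or either SW620 5-FU library it was not called (adjusted p up to 0.0734). CENPA, the centromeric H3, also rose in SW620 (1.80 ± 0.31, SE). H2AFZ had 83.1 and 119 CPM after AFZC and 89.4 and 97.2 CPM after 5-FU in SW620, with overlapping groups and no call. H2AFX, H1F0 and H1FX passed the test of the difference between the lines, each losing the call without some single libraries; H3F3B and CENPA did not pass it.

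**Figure D5:**
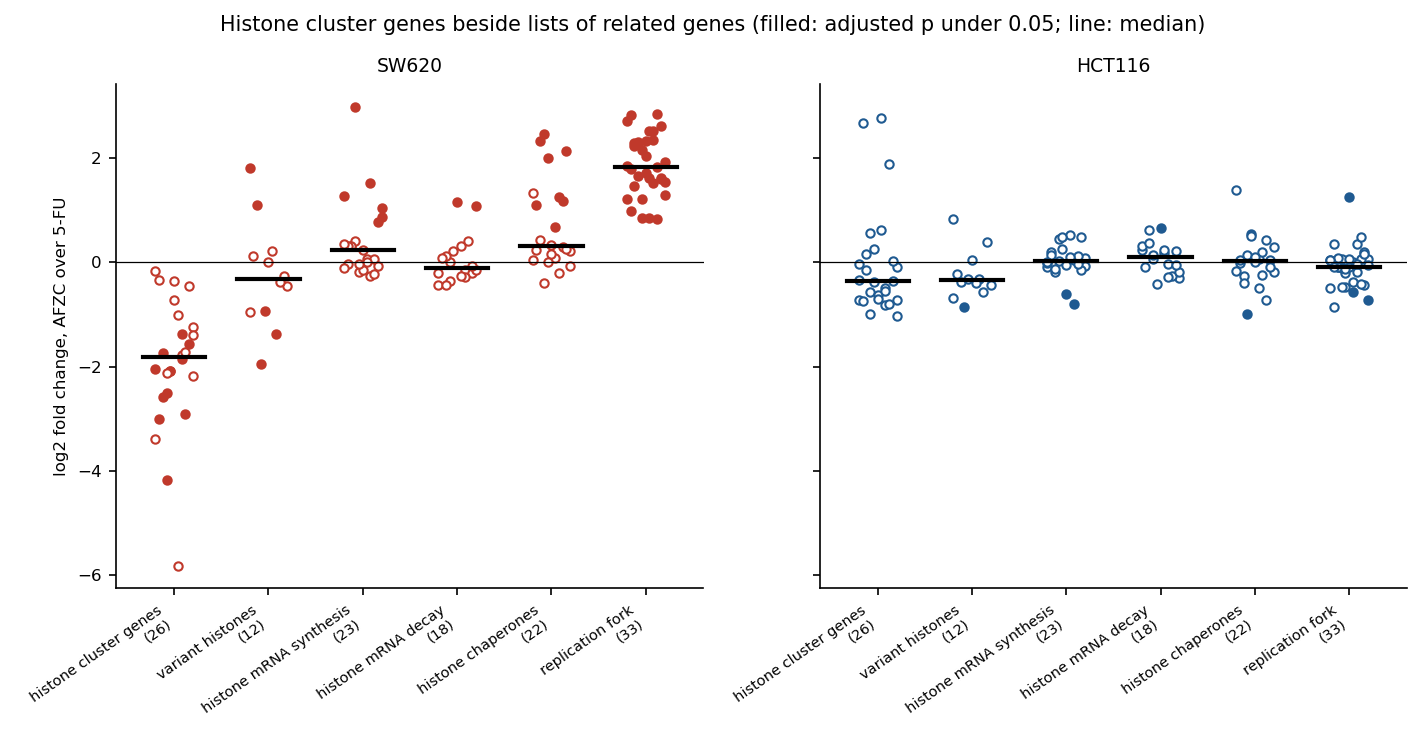
log2 fold change of AFZC over 5-FU (vertical) in SW620 and in HCT116 for the tested histone cluster genes and for 5 lists of related genes (horizontal, with the number tested); filled points passed at an adjusted p under 0.05 and lines are medians. In SW620 the histone cluster genes have a median of -1.82 and the replication fork genes of 1.81. In HCT116 the medians are -0.36 and -0.09. The lists were drawn up with earlier results of these data known.

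Values that bear on what an oligo(dT) library recovers moved as follows. RNAs without a poly(A) tail, a list of 14 of which 4 were tested (RN7SL2, RMRP, SCARNA6 and SNORD3A), summed to 498 and 573 CPM after AFZC and 439 and 504 CPM after 5-FU in SW620, and to 602 and 417 against 481 and 537 CPM in HCT116. The groups overlapped in both lines, 7 to 9 of the 14 were at 0 in a library, and none was called in a treatment comparison. A list of 8 members taken as able to give polyadenylated messages (HIST1H1C, HIST1H2AC, HIST1H2BC, HIST1H2BD, HIST1H2BG, HIST1H2BJ, HIST1H2BK and HIST2H2BE) was drawn up with earlier results of these data known, and it summed to 11.9 and 10.7 CPM after AFZC and 52.3 and 53.3 CPM after 5-FU in SW620. In that comparison 7 of the 8 fell, beside 12 of the 26 tested members and 6.95% of all genes; since the list was chosen with the outcome in view, nothing is read from this count. In HCT116 they summed to 39.0 and 41.8 CPM after AFZC and 61.9 and 46.0 CPM after 5-FU, and none passed.

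Tested members were also set apart by whether a poly(A) signal lay near an annotated end. Of the 16 with a signal 8 fell in SW620, and of the 10 without one 4 did. Those 4 include HIST1H1C and HIST1H2BK, whose annotation is coding sequence alone and holds no 3' end where a signal could be found. This split therefore cannot show whether having a signal goes with the fall. The median log2 fold change in SW620 was -1.64 with a signal and -2.07 without. How much of the change lies in polyadenylated messages, and how much in stem-loop messages caught by the beads, was not tested.

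Markers of cell identity also moved. Of 9 epithelial genes tested, 3 fell in SW620 after AFZC (KRT8, KRT18 and KRT19), and 2 were higher after AFZC in HCT116 (VIL1 and KRT19, the second not without HCT116 AFZC library 1 or either HCT116 5-FU library, adjusted p up to 0.194). The summed level of the list of 10 was 5553 and 5140 CPM after AFZC and 15319 and 16695 CPM after 5-FU in SW620, and 8083 and 4988 against 4424 and 3587 CPM in HCT116. Of 10 markers of fibroblasts and leukocytes, 5 were tested and LYZ was called, higher in SW620 after AFZC, with 40.5 and 15.7 CPM against 5.37 and 7.70 CPM (adjusted p = 0.00883, and up to 0.0880 without SW620 AFZC library 1 or either SW620 5-FU library). Their summed level was 114 and 56.5 CPM after AFZC and 56.5 and 63.0 CPM after 5-FU in SW620, and 58.9 and 52.8 against 44.7 and 45.9 CPM in HCT116, and 3 to 5 of the 10 were at 0 in a library. The part of these changes in the histone values was not tested.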

How the data were processed

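Per the labels, libraries came from RNA bound to oligo(dT) beads and did not keep the strand. The table that the authors deposited holds raw counts for each gene symbol, laid out as featureCounts writes it. The submitters' notes on processing list trimming and quality tools (FastQC, cutadapt, Trimmomatic), the aligners STAR and HISAT2, featureCounts, edgeR, DESeq2 and the build GRCh38. The aligner used for the table, the treatment of reads that align to several places and the counting of mates are not given in these sources.

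Genes passing filterByExpr (minimum count 10; 21378 of 57169) were scaled with TMM factors. A quasi-likelihood model of 4 group means was fitted across the 8 libraries (edgeR 4.0.16 in R 4.3.3, robust dispersion, 4 residual degrees of freedom). All 5 contrasts were tested two-sided, with Benjamini-Hochberg adjustment over all genes and a threshold of 0.05; the standard error is the log2 fold change divided by the root of F. The common dispersion gave a coefficient of variation of 19.9%. Pooled ratios have 95% exact binomial intervals, and a group at 0 is set at 3 counts over the group. Within groups, libraries differed beyond counting noise (chi-square over degrees of freedom 21.7 to 55.9).

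Members, lists and naming rules were chosen with earlier results of these data known. Per-library values are given for the 12 members of highest mean CPM, for members called in a treatment comparison or in the difference, and for the 4 called members of largest change in each comparison of lines. Of members below the filter the 5 of highest total are named. Outside the members, SLBP, NPAT, CASP8AP2, H2AFX, H2AFZ, H3F3B and H1F0 are named whatever their result, with the 2 called genes of largest change from each list in each treatment comparison; other names were picked after their values were seen. All 76 members lay at their GENCODE 29 positions. The fit was tested on simulated data with 200 genes changed between the SW620 treatment groups. It called 26.9% of 2-fold and 69.5% of 4-fold changes, and 7.14% of its calls were false. A member without a call may therefore still have changed. Alternatives were a replicate term, library sizes alone, upper-quartile scaling, DESeq2 1.42.0, no filter, a minimum count of 30, no robust option, each line alone, and leaving out each library.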

Additional observations from a re-analysis of the deposited data

Results flagged for a closer look

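The AFZC effect relative to 5-FU differed between the lines, by the interaction test in edgeR's quasi-likelihood fit with Benjamini-Hochberg adjustment, for 6 histone cluster genes. As SW620 effect minus HCT116 effect on the log2 scale, the difference was -1.93 for HIST1H2AC, -1.72 for HIST1H2BK, -1.70 for HIST1H1C, -2.10 for HIST2H2BE, -4.72 for HIST1H3H and -5.67 for HIST1H2BG. All 4 groups of HIST1H2AC, HIST1H2BK and HIST1H1C had counts well above the floor, whereas HIST1H3H had 2 counts in SW620 after AFZC and HIST1H2BG had 1 count in HCT116 after 5-FU and passed the count filter through the SW620 5-FU libraries alone. The calls of all 6 rest on few libraries, as described above. Leaving out 1 library at a time spread the difference over -2.26 to -1.46 for HIST1H2AC, -2.01 to -1.45 for HIST1H2BK and -2.05 to -1.17 for HIST1H1C.

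Among variant histones the same difference passed for H1FX (-1.10), H1F0 (-1.06) and H2AFX (1.48). Among genes whose products make or process histone mRNA it passed for CCNE2 (2.51), CCNE1 (1.47), CASP8AP2 (1.36), CDK2 (0.95), SLBP (0.95) and CSTF2T (0.84). Among decay genes it passed for ERI1 (1.37) and, in the other direction, UPF1 (-0.79). Of the 9 chaperones that passed, CHAF1A and ASF1B differed by 2.59 and 2.31. Of the 32 replication fork genes that passed, GINS4 differed by 2.46, POLA2 by 2.36 and MCM6 by 2.01.

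Among epithelial genes, KRT8, KRT18 and KRT19 differed by -2.76, -2.51 and -2.45. VIL1 differed by -5.12; in HCT116 it had 1.96 and 0.777 CPM after AFZC and 0.115 and 0 CPM after 5-FU. The part of these differences in those of the histone genes was not tested.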

How the results depend on the processing

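The call of HIST1H1C, HIST1H2AC, HIST1H2BD, HIST1H2BK, HIST2H2BE and HIST3H2A in SW620 held in all 16 alternatives. Leaving out 1 library at a time gave 8 to 12 members lower and 0 to 0 higher in SW620, 0 to 0 in either direction in HCT116, and 1 to 6 lower and 0 to 0 higher in the difference. Between the lines it gave 1 to 3 higher and 8 to 10 lower under AFZC and 4 to 8 higher and 3 to 4 lower under 5-FU. Over all genes it gave 216 to 1509 higher and 89 to 1215 lower in HCT116, 1135 to 2703 and 448 to 1741 in SW620, and 478 to 1521 and 279 to 1112 in the difference.

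With library sizes alone, 5141 genes were called higher and 445 lower in SW620, 2455 and 430 in the difference, and 7 members were lower in SW620 than in HCT116 under 5-FU. With no filter, 1306 genes were lower in HCT116 and 1848 higher in the difference. Each line alone gave 1 member lower in HCT116. In HCT116, leaving out 1 library spread the log2 fold change of HIST1H1C over -0.88 to 0.0035 and that of HIST1H2BC over -1.27 to 1.33, with -0.50 without HCT116 5-FU replicate 2. In SW620 it spread HIST2H2BD over -0.85 to 0.0383 and HIST1H2BN over -0.41 to 0.0413, and library sizes alone gave 0.0430 and 0.213. None of these passed a test. The cause was not tested.

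With the replicate number as a block, 12 members were lower in SW620, 0 in HCT116 and 6 in the difference. Deviations of same-numbered libraries correlated at -0.10 to 0.0952, so no shared deviation was seen. These values cannot show whether same-numbered libraries came from a shared culture.

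Of the 76 members 50 had too few counts to be tested, and 16 of these had none; how far depth, transcript length and poly(A) selection share in this was not tested.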
